A study of Vitis vinifera with 27 samples.

Results

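The change in the grape berry transcriptome between the onset of ripening and the later ripening stages was described across 3 table grape cultivars of Vitis vinifera. All 27 samples of the series entered the comparison, 18 from the later stages (9 at EL36 and 9 at EL38) and 9 from EL35. EL35, EL36 and EL38 are stages of a growth scale for grapevine, where EL35 marks the start of softening and skin colour, EL36 the end of veraison while sugar is still accumulating, and EL38 the mature fruit. A stage name did not mark equal sugar in all cultivars. The paper reports lower soluble solids in Italia at EL36 than in Xiangfei and Zaomeiguixiang at EL35. The cultivars were Xiangfei (strong Muscat flavour, green to golden skin), Italia (moderate Muscat flavour) and Zaomeiguixiang (strong Muscat flavour, purple-reddish skin), each with 3 replicates per stage. Every replicate was a pool of berries from vines grown under plastic cover in 1 vineyard and 1 season, so the p-values below measure the spread between these pools. Skin and flesh were measured together, and the sources used here do not state whether seeds were removed. In such bulk samples a lower level of a transcript can mean fewer cells of a type or less RNA per cell, and these cannot be told apart.

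At the onset of ripening the berry leaves a phase of hard, acid, green growth. During ripening it imports sucrose, which is split and stored as hexoses in the vacuole, it stops gaining and then loses malate, its cell walls are loosened and its pectin is modified, chlorophyll is lost, and skins of coloured cultivars make anthocyanins. Tartrate is formed mainly before ripening, by way of ascorbate. Stilbenes such as resveratrol are made by stilbene synthases, a large gene family in grapevine, and Muscat aroma comes from terpenes. The comparison asked which transcripts moved the same way in the 3 cultivars as berries passed from EL35 into the later stages.

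The summed expected count per library was 16908557 to 26143192 at the later stages and 18845173 to 27186956 at EL35, so both groups were sequenced to like depth (medians 23273987 and 23370824). Transcripts of ripe berry tissue were abundant in both groups: the class IV chitinases summed to 1654 to 8083 FPKM at the later stages and 1040 to 8457 FPKM at EL35, and the thaumatin-like proteins to 2118 to 10783 FPKM and 369 to 10125 FPKM in the same order. The first principal component of the log2 counts (18.3% of the variance) ran from -107 to 165 in the later samples and from -85.1 to 98.8 at EL35. The second (13.3%) ran from -114 to 132 and from -124 to 13.3 in the same order, so the groups overlapped broadly on both. The third (11.4%) ran from -94.7 to 47.9 in the later samples (median -32.5) and from 8.81 to 110 at EL35 (median 72.9). It is described because the groups shifted along it. Their overlap on the third component came from a single later library, Xiangfei EL38 replicate 3, at 47.9, and the next later library was at 2.5.

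Seed storage transcripts set 4 libraries apart, and 3 of these were from EL35. Over 21 genes of legumins, vicilins, 2S albumins, oleosins and related seed proteins, the summed level was 133 to 1960 FPKM at the later stages (median 215) and 218 to 57657 FPKM at EL35 (median 328). A single member, LOC100256985, was at 78 to 283 FPKM in every library, so these medians mostly reflect that gene. By this sum Xiangfei EL35 replicate 1 (559 FPKM) lay close to Xiangfei EL36 replicate 1 (530 FPKM). The mean of log2(FPKM + 1) over the list was 7.47 in Italia EL35 replicate 3, 5.59 in Zaomeiguixiang EL35 replicate 3, 3.98 in Xiangfei EL38 replicate 3 and 3.38 in Xiangfei EL35 replicate 1, against 0.70 to 1.98 in the other 23 libraries. Because these libraries fall mostly in 1 group, the total counts, the list counts that moved and the named calls that were lost are given below also without them. Their part in the other changes was not tested.

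**Figure D1:**
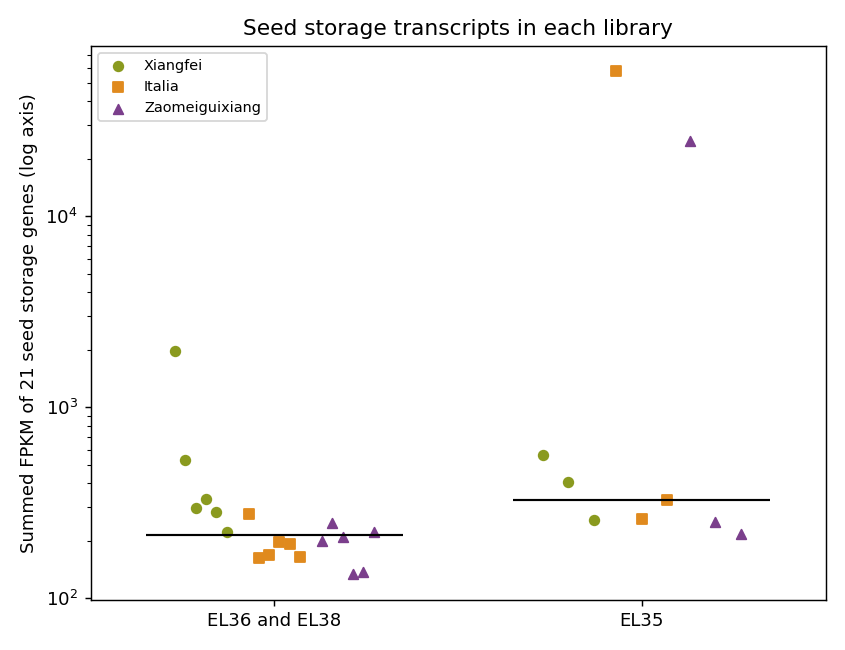
Summed FPKM of 21 seed storage genes (vertical log axis) in the later libraries (EL36 and EL38, left) and the EL35 libraries (right), 1 point per library, shaped and coloured by cultivar, with a line at the group median (215 and 328 FPKM). The highest points are Italia and Zaomeiguixiang libraries of EL35 and 1 Xiangfei library of EL38, up to 57657 FPKM. The medians mostly reflect 1 gene, LOC100256985, which was at 78 to 283 FPKM in every library.

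Of 21152 genes tested with cultivar as a covariate, 441 (2.08%) changed by at least 1 on the log2 scale at an adjusted p of at most 0.001 (edgeR). At an unadjusted p under 0.05 there were 5427 genes, which is 25.7% of those tested. Of the 441 genes, 106 (0.501%) were higher and 335 (1.58%) were lower at the later stages than at EL35. Fold changes were large in both directions, with a median log2 fold change of 2.77 among the higher genes and -2.20 among the lower genes, and 80 of the higher and 188 of the lower genes changed at least 4-fold. The direction was the same in each of the 3 cultivars for 106 of 106 higher genes and 334 of 335 lower genes. The calling test favours genes that move alike in the cultivars, so this agreement is no separate support. Some of these signs also rest on levels near 0, as for LOC100265206 in Zaomeiguixiang, given below. The later and EL35 samples did not overlap in FPKM for 8 of the higher genes and for 38 of the lower genes. Over all 21152 genes tested there were 8 (0.0378%) and 39 (0.184%) such genes in the same order. Nearly all of them were thus called genes, which were chosen for this very difference, so the lack of overlap is no separate support. With the 4 libraries with seed transcripts left out, 71 genes were higher and 318 lower, and 46 and 245 of the original calls were among them, while the median over all genes moved to 0.13 on the log2 scale, against 0.00 with all libraries. Leaving out Zaomeiguixiang EL35 replicate 3 alone brought the higher genes to 67 and the lower genes to 251.

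**Figure D2:**
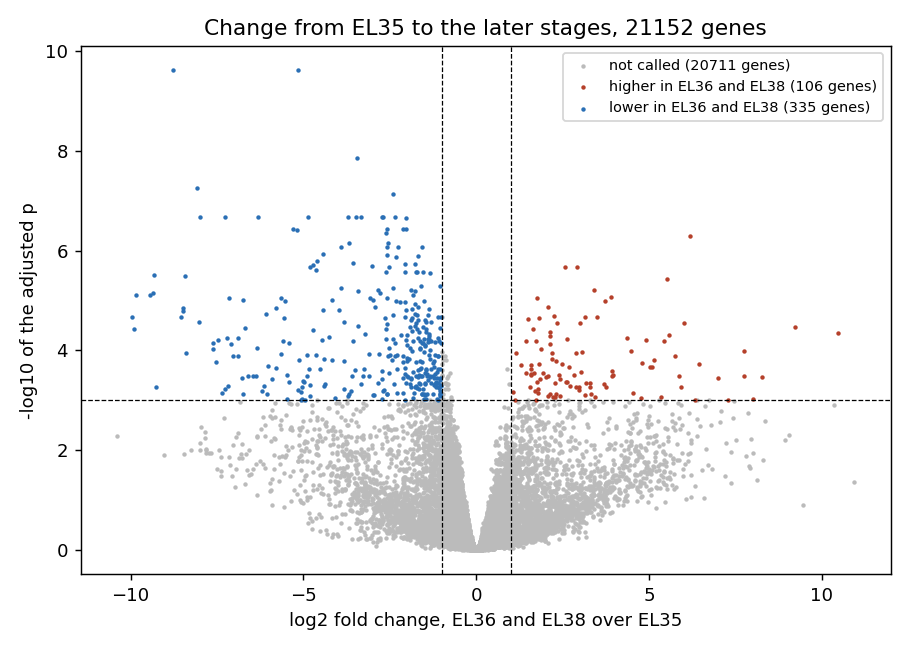
Log2 fold change of the later stages over EL35 (horizontal axis) against -log10 of the adjusted p from edgeR (vertical axis) for 21152 genes, with the thresholds as dashed lines. The 335 genes that were lower (blue) outnumber the 106 that were higher (red).

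Among the genes with the largest rise, 3 were above every EL35 sample in each of the 18 later samples. HT5, a hexose transporter, had 0.37, 4.98 and 411 FPKM (lowest, median and highest) at the later stages, against 0, 0.08 and 0.34 FPKM at EL35. Its log2 fold change was 7.74 ± 1.24 (SE, adjusted p = 0.000102), and its 411 FPKM came from Xiangfei EL36 replicate 1, with 59.2 FPKM in the next library. LOC100853652, a nitrilase of the NIT4 type whose Arabidopsis relative breaks down cyanoalanine, had 8.21, 32.1 and 158 FPKM at the later stages, against 0.04, 0.27 and 5.02 FPKM at EL35 (log2 fold change 6.18 ± 0.67, adjusted p = 5.10e-07). LOC100253027, an amino acid transporter of the vacuole, had 9.75, 27.8 and 66 FPKM at the later stages, against 0, 0.57 and 2.02 FPKM at EL35 (log2 fold change 5.53 ± 0.69, adjusted p = 3.69e-06). The rise of the nitrilase and of this transporter was seen in each cultivar at 5.48 to 7.06 and 4.16 to 6.90 on the log2 scale, and all 3 genes kept their calls without the 4 libraries.

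The other 5 genes whose later samples all lay above EL35 are named here after their values were seen. They were LOC100246346, a leucine-rich repeat receptor kinase (log2 fold change 3.69), LOC100242765, annotated as a transporter of the arsB type (2.99), LOC100243672, a geraniol 8-hydroxylase of the cytochrome P450 family (2.13), LOC100246301, an inositol transporter (1.87), and LOC100245448, which has no described function (1.49). The geraniol 8-hydroxylase had 9.4, 16.9 and 36.6 FPKM at the later stages, against 1.31, 3.6 and 8.35 FPKM at EL35. The inositol transporter had 21.5, 40.6 and 122 FPKM, against 6.1, 14.9 and 20.2 FPKM at EL35. Of the 8 genes without overlap, 7 were also called without the 4 libraries, and LOC100246346 missed the threshold there (adjusted p = 0.00117).

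**Figure D3:**
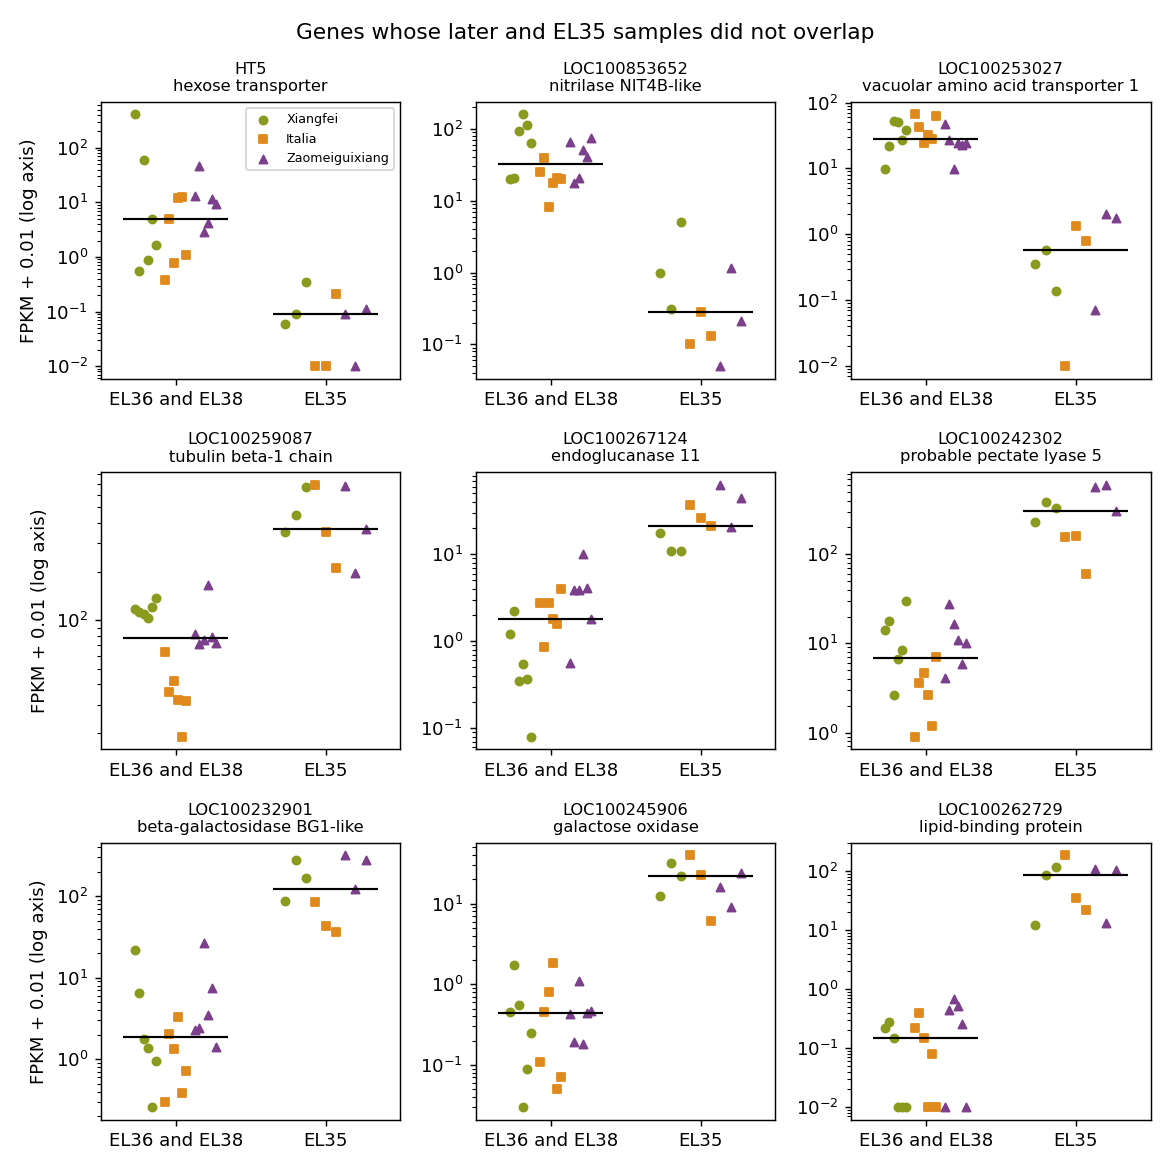
FPKM + 0.01 on a log axis for 9 named genes whose later samples (EL36 and EL38, left in each panel) and EL35 samples (right) did not overlap, 1 point per sample with shape and colour for the cultivar and a line at the group median. HT5, LOC100853652 and LOC100253027 lie higher in the later samples, and the other 6 genes lie lower in them.

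A further 4 of the genes chosen for the largest rise overlapped with EL35. LOC100247990, a basic pathogenesis-related protein 1, had 0.06, 20.9 and 272 FPKM at the later stages, against 0, 0.16 and 8.01 FPKM at EL35. LOC100261887 and LOC100256795, which resemble the cherry allergen Pru av 1 of the pathogenesis-related 10 family, had medians of 42.7 and 49.2 FPKM at the later stages, against 0.37 and 0.72 FPKM at EL35. Their log2 fold changes were 5.88 ± 1.04 and 5.34 ± 1.03. The extensin LOC100265028, a structural protein of the cell wall, had 6.89, 88.4 and 886 FPKM at the later stages, against 0.41, 3.97 and 45.4 FPKM at EL35 (log2 fold change 4.76 ± 0.93, adjusted p = 0.000913). In Xiangfei EL35 replicate 3 the PR-1 gene, both allergen-like genes and the extensin stood above the other EL35 samples. The calls of LOC100247990, LOC100256795 and LOC100265028 were each lost when any one of 19, 18 or 16 single libraries was left out, with adjusted p of at most 0.00279, and that of LOC100261887 was lost without Zaomeiguixiang EL35 replicate 3 (adjusted p = 0.00116). With the 4 libraries left out all 4 missed the threshold, at log2 fold changes of 4.56 to 6.11 and adjusted p of 0.00329 to 0.00778.

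The remaining genes chosen for the largest rise had other roles. Mavicyanin (LOC100252646), a blue copper protein of the phytocyanin family, had the highest median of the 12 genes at the later stages, with 14.3, 306 and 723 FPKM at the later stages, against 0.79, 13 and 48.6 FPKM at EL35 (log2 fold change 4.48 ± 0.72, adjusted p = 0.000103). In 17 of the 18 later samples it was above every EL35 sample. LOC100257229, a chloroplast fatty acid desaturase of the FAD4 type, had 0.86, 8.77 and 56.2 FPKM at the later stages, against 0.04, 0.56 and 1.23 FPKM at EL35. LOC100260853, a carboxylesterase, had 0, 9.2 and 59.1 FPKM, against 0, 0.12 and 1.83 FPKM at EL35. The desaturase kept its call without the 4 libraries, while mavicyanin (adjusted p = 0.00149) and the carboxylesterase (adjusted p = 0.00164) missed the threshold.

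Many of the largest falls were of genes near 0 at the later stages. The one with the clearest separation was LOC100262729, annotated as a lipid-binding protein, with 0, 0.14 and 0.67 FPKM at the later stages, against 12.3, 86.7 and 185 FPKM at EL35. Its 18 later libraries held 49 counts in all, against 10124 counts in the 9 EL35 libraries, and its log2 fold change was -8.76 ± 0.61 (adjusted p = 2.42e-10). Each cultivar showed this fall, at -9.32 (Xiangfei), -9.22 (Italia) and -7.87 (Zaomeiguixiang). LOC100245906, a galactose oxidase, had 0.02, 0.425 and 1.84 FPKM at the later stages, against 6.06, 21.8 and 39.6 FPKM at EL35 (log2 fold change -5.29 ± 0.56, adjusted p = 3.69e-07). LOC100267804, a proline-rich protein like carrot DC2.15, had 0, 0.06 and 1.21 FPKM, against 0.2, 7.96 and 64.6 FPKM at EL35, with 11 of the 18 later samples below every EL35 sample. LOC100852930, an organ-specific protein of the P4 type, had 0, 0 and 0.33 FPKM, against 0, 1.36 and 49.7 FPKM at EL35. All 4 kept their calls without the 4 libraries, at log2 fold changes of -8.93 to -5.44.

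Other large falls, or the size of them, rested on the libraries with seed transcripts. Legumin (LOC100241281), cruciferin (LOC100246409) and 2S albumin (LOC100252101), which are storage proteins of seeds, had at most 2.38, 5.99 and 4.83 FPKM at the later stages, and up to 3629, 9228 and 10096 FPKM at EL35. Their EL35 medians were only 1.91, 5.58 and 4.35 FPKM. The log2 fold changes of -9.96, -9.89 and -9.26 became -3.17, -3.50 and -3.03 without the 4 libraries, and none of the 3 was then called (adjusted p = 0.222, 0.196 and 0.215). Without Zaomeiguixiang EL35 replicate 3 alone the call of the legumin was lost (adjusted p = 0.00154), and that of the cruciferin was lost without this library or Italia EL35 replicate 3. The call of the 2S albumin was lost without any one of 13 single libraries. The omega-6 fatty acid desaturase LOC100258789, which makes linoleate in the endoplasmic reticulum, had a later range of 0 to 0.67 FPKM against 0.67 to 484 FPKM at EL35, and its log2 fold change of -8.42 became -3.37 without the 4 libraries (adjusted p = 0.0135). In 17 of the 18 later samples it was below every EL35 sample. Its call was kept with any 1 library left out (adjusted p of at most 6.15e-05). Across the seed storage list 19 of the 20 members tested had a negative log2 fold change, 3 were called lower (15%), and the median was -4.79. Each of these calls was lost without the 4 libraries, and the median of the 18 members then tested was -1.31.

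A further 4 of the genes chosen for the largest falls were led by Xiangfei EL35 replicate 1. Sucrose synthase 2 (LOC100243135), which cleaves sucrose, had 463 FPKM in that library and 62.9 FPKM in the next, with an EL35 median of 0.22 FPKM and at most 0.42 FPKM at the later stages. The copper transporter LOC104878898 had 145 FPKM there, the thaumatin-like protein LOC100248638 had 80 FPKM and the growth-regulating factor LOC100853530 had 171 FPKM, where the EL35 medians were 0.08, 0 and 0.08 FPKM. The calls of LOC104878898, LOC100248638 and LOC100853530 were lost without that library, those of LOC100248638, LOC100853530 and LOC100243135 without Zaomeiguixiang EL35 replicate 3, and that of LOC100853530 without Italia EL35 replicate 3. Without the 4 libraries the sucrose synthase was at -2.40 (adjusted p = 0.235), and the other 3 genes were too low to be tested.

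Sugar genes were called in both directions and acid genes only as lower. Of 69 genes of sugar transport and sucrose metabolism tested, 2 (2.9%) were higher and 5 (7.25%) lower, with a median log2 fold change of -0.33 beside 0.00 over all genes, and 1 higher and 4 lower without the 4 libraries. HT5 was joined among the higher genes by HT4, also a hexose transporter (log2 fold change 2.32), while beta-fructofuranosidases, which split sucrose, were lower at -2.84 (LOC100256970) and -1.99 (LOC100853849). The acid invertase LOC100241232 was also lower, with a mean of 12.6 FPKM at the later stages, against 44.1 FPKM at EL35. HT4 and these invertases are named after their values were seen, and HT4 missed the threshold without the 4 libraries (adjusted p = 0.00393). The most abundant members of the list did not pass the test. LOC100243643, a sugar exporter of the SWEET family, had 433, 1194 and 2251 FPKM at the later stages, against 241, 404 and 3008 FPKM at EL35, and its log2 fold change was 1.93 (Xiangfei), -0.74 (Italia) and 1.11 (Zaomeiguixiang). HT6 had 140, 318 and 1112 FPKM at the later stages, against 232, 996 and 1806 FPKM at EL35 (log2 fold change -1.23 ± 0.34, adjusted p = 0.0174).

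Of 78 genes of malate, tartrate and vacuolar proton pumps, 4 (5.13%) were lower, and the median was -0.21. The largest fall was that of L-idonate 5-dehydrogenase (LOC100232980), the enzyme of grapevine tartrate synthesis that oxidises idonate. It had 2.86, 15 and 85.7 FPKM at the later stages, against 61.2, 106 and 418 FPKM at EL35, and 17 of the 18 later samples were below every EL35 sample (log2 fold change -3.41 ± 0.44, adjusted p = 6.37e-06). Subunit C of the vacuolar proton ATPase (LOC100266332) fell by 1.57 on the log2 scale, with 0.89 to 5.53 FPKM at the later stages and 3.32 to 15.4 FPKM at EL35. The abundant NADP-dependent malic enzyme (NADP-ME), which decarboxylates malate, had 161, 383 and 591 FPKM, against 329, 631 and 763 FPKM at EL35, and did not pass the test (log2 fold change -0.64 ± 0.21, adjusted p = 0.0457). Nor did the ATP-citrate synthase subunit LOC100267071 (0.49 ± 0.24, adjusted p = 0.211).

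Among cell wall enzymes most calls were of genes lower at the later stages, and most members were not called. Of 96 pectin enzymes tested, 9 (9.38%) were lower, and 61 of the 96 had a negative log2 fold change (median -0.55), while 11 were lower without the 4 libraries. Pectate lyases cut the pectin backbone, and 2 of them were among the 9. LOC100242302 (pectate lyase 5) had 0.89, 6.88 and 29.7 FPKM at the later stages, against 59.7, 307 and 600 FPKM at EL35, with no overlap and log2 fold changes of -4.58 to -5.47 in the 3 cultivars. PL1, the most abundant pectin enzyme, had 43.1, 295 and 1257 FPKM at the later stages, against 576, 1780 and 2591 FPKM at EL35 (log2 fold change -2.28 ± 0.39, adjusted p = 0.00023). The beta-galactosidase LOC100232901, which trims galactan side chains, had 0.25, 1.89 and 26.9 FPKM, against 36.6, 123 and 315 FPKM at EL35, with no overlap (log2 fold change -5.19 ± 0.55). Also lower, and named after their values were seen, were pectinesterase 3 (LOC100232847), with means of 71.4 FPKM at the later stages and 330 FPKM at EL35, and the polygalacturonase LOC100250089, with means of 44.4 FPKM and 166 FPKM in the same order. The abundant pectin methylesterase LOC100233113 had 57.4, 214 and 774 FPKM, against 230, 327 and 737 FPKM at EL35, and did not pass the test (adjusted p = 0.291).

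Of 136 expansins, xyloglucan and cellulose enzymes, 12 (8.82%) were lower and 1 was higher, with a median of -0.35. Expansin-A10 (LOC100267326), a protein that loosens walls, had 0.24, 2.94 and 28.6 FPKM at the later stages, against 27.4, 56.5 and 135 FPKM at EL35 (log2 fold change -4.44 ± 0.51), and its fall was -2.18 (Xiangfei), -4.06 (Italia) and -6.26 (Zaomeiguixiang). Endoglucanase 11 (LOC100267124), which cuts glucans, had 0.07, 1.79 and 9.96 FPKM, against 10.7, 21.2 and 62.7 FPKM at EL35, with no overlap. Expansin-A11 (LOC100245385), named after its values were seen, averaged 664 FPKM at the later stages and 1683 FPKM at EL35 (log2 fold change -1.35 ± 0.22). The most abundant member had a positive log2 fold change that missed the threshold. Expansin-B2 (LOC100253046) had 1206, 5307 and 18405 FPKM at the later stages, against 207, 1102 and 2381 FPKM at EL35, with a log2 fold change of 2.24 ± 0.45 and an adjusted p of 0.00126. The abundant xyloglucan endotransglucosylase LOC100265471, which cuts and rejoins xyloglucan, had 624 to 5385 FPKM, against 1326 to 7987 FPKM at EL35 (log2 fold change -1.12 ± 0.35, adjusted p = 0.0315).

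Aquaporins, the water channels of membranes, were called only as lower. Of 21 tested, 17 had a negative log2 fold change (median -1.31), 2 were called lower (9.52%, and 4 members without the 4 libraries), and 9 were lower at an adjusted p of at most 0.05 with the same minimum fold, beside 5.04% of all genes. LOC100263698, an aquaporin of the vacuolar TIP1 group, had 0.89, 6.26 and 69.7 FPKM at the later stages, against 68.2, 224 and 593 FPKM at EL35 (log2 fold change -4.44 ± 0.61, adjusted p = 1.53e-05), and 17 of 18 later samples were below every EL35 sample. TIP2;1 had 6, 142 and 868 FPKM, against 150, 604 and 2215 FPKM at EL35 (log2 fold change -2.43 ± 0.40). The plasma membrane aquaporins PIP1;3 and PIP2;1 were the most abundant, at medians of 3156 and 999 FPKM at the later stages against 7813 and 3342 FPKM at EL35, and neither passed the test (adjusted p = 0.0519 and 0.00168), although PIP2;1 did so without the 4 libraries (adjusted p = 0.000373). Of 209 genes of histones, cyclins and cell division, 1 was called (0.478%, beside 1.58% of all genes), which was the tubulin beta-1 chain LOC100259087. It had 19, 77.3 and 166 FPKM at the later stages, against 197, 369 and 689 FPKM at EL35, with no overlap (log2 fold change -2.60 ± 0.28, adjusted p = 4.51e-07). Tubulin alpha (LOC100256600) was at -1.21 ± 0.30 (adjusted p = 0.00703), and the abundant cell division cycle protein 48 homolog LOC100265402 at 0.11 ± 0.21. The median of this list was -0.33, and 0.07 without the 4 libraries.

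Photosynthesis genes leaned lower, and few passed the test. Of 71 tested, 54 had a negative log2 fold change (median -0.48), 3 (4.23%) were lower and 1 (1.41%) was higher, beside 1.58% and 0.501% of all genes. LOC100241745, a chlorophyll a-b binding protein of the main light-harvesting complex, had 0.91, 6.94 and 44.4 FPKM at the later stages, against 27.2, 54.4 and 331 FPKM at EL35 (log2 fold change -3.41 ± 0.50, adjusted p = 3.17e-05). LOC100245214 carries the same description and went the other way, with 0.05, 4.96 and 14.1 FPKM, against 0.2, 0.64 and 1.4 FPKM at EL35 (log2 fold change 3.32 ± 0.63, adjusted p = 0.000742). Its call was lost without any one of 17 single libraries and without the 4 libraries (adjusted p = 0.00373), and reads of such near-identical genes may be shared between them by the estimation. The photosystem I subunit LOC100240928 had 34.3, 191 and 944 FPKM, against 296, 862 and 2147 FPKM at EL35 (log2 fold change -1.80 ± 0.42, adjusted p = 0.00443). The Rubisco small chain LOC100267942, of the carbon-fixing enzyme, had medians of 519 and 585 FPKM and was at 0.39 ± 0.39 (adjusted p = 0.605).

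The stilbene synthases had the highest median log2 fold change of the 26 lists. Of 33 members tested, 32 had a positive log2 fold change, the median was 4.64, 3 (9.09%) were called higher, and 27 were higher at an adjusted p of at most 0.05, beside 3.71% of all genes. DESeq2 called 21 of them higher at the threshold of 0.001. LOC100253166 had 0, 1.91 and 53.7 FPKM at the later stages, against 0 FPKM in 8 EL35 samples and 0.03 FPKM in the other, and its counts summed to 2905 over the later libraries and to 1 at EL35, so no fold is given. LOC100262321 had 0.44, 3.67 and 78.3 FPKM at the later stages, against 0, 0.21 and 0.8 FPKM at EL35 (log2 fold change 5.02 ± 0.86, adjusted p = 0.000216), and missed the threshold without the 4 libraries (adjusted p = 0.0023). The 2 most abundant members, STS (100242994) and LOC100264173, had 1.31 to 495 and 0.26 to 148 FPKM at the later stages, against 0 to 7.08 and 0 to 3.05 FPKM at EL35, and just missed the threshold (adjusted p = 0.00183 and 0.00186). Xiangfei EL36 replicate 1 was the highest library for LOC100253166, LOC100262321 and STS, at 53.7, 78.3 and 495 FPKM. The median was 4.12 without the 4 libraries, where 1 member was called. Members of this family are close copies of each other, so that reads may be split between them and the values of single genes are less certain than the direction of the family.

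Of 118 phenylpropanoid and lignin genes, 4 (3.39%) were higher and 3 (2.54%) lower, beside 0.501% and 1.58% of all genes, and 3 and 1 without the 4 libraries. At an adjusted p of at most 0.05, 26 were higher and 9 lower, beside 3.71% and 5.04% of all genes. LOC100265206, a hydroxycinnamoyltransferase on the way to lignin, had 0, 3.88 and 112 FPKM at the later stages, against 0, 0 and 1 FPKM at EL35, with log2 fold changes of 7.49 (Xiangfei), 7.54 (Italia) and 2.15 (Zaomeiguixiang). In Zaomeiguixiang it stayed near 0, with at most 0.42 FPKM at the later stages and 0.07 FPKM at EL35, so no rise is read there. With the contrast of 9 group means its call was lost (log2 fold change 4.90). Dirigent protein 7 (LOC100263839), of the family that guides phenol coupling, had 0, 1.31 and 157 FPKM, against 0, 0 and 0.2 FPKM at EL35, where its 9 libraries held 4 counts in all. Its call was lost without any one of 19 single libraries and without the 4 libraries (adjusted p = 0.00553), and that of LOC100265206 without any one of 5 EL35 libraries (adjusted p of at most 0.00128). The abundant caffeoyl-CoA O-methyltransferase LOC100243978 was at 0.58 ± 0.38 and cinnamate 4-monooxygenase LOC100253493 at 0.96 ± 0.63, and neither passed the test (adjusted p = 0.373 for both). For LOC100253493 the value without the 4 libraries was 2.77 (adjusted p = 0.011).

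Of 73 flavonoid enzymes, 2 (2.74%) were higher, and the median was 0.17. Both were annotated as anthocyanidin 3-O-glucosyltransferases, the class of enzyme that attaches glucose to anthocyanidins. LOC100242884 had 5.63, 13.1 and 46.6 FPKM at the later stages, against 1.09, 2.75 and 7.25 FPKM at EL35 (log2 fold change 2.38 ± 0.42, adjusted p = 0.000309). LOC100247914 had 0.32, 7.54 and 24.2 FPKM, against 0, 0.31 and 3.01 FPKM at EL35 (log2 fold change 3.93 ± 0.70, adjusted p = 0.000322). The call of LOC100242884 was lost without any 1 of the 3 Zaomeiguixiang EL35 replicates, that of LOC100247914 without Zaomeiguixiang EL35 replicate 3 (adjusted p = 0.00109), and both without the 4 libraries (adjusted p = 0.00543 and 0.00126). The abundant chalcone synthase CHS3, of the first flavonoid step, spread widely in both groups, with 14.3 to 1477 FPKM at the later stages and 2.36 to 1024 FPKM at EL35. Its log2 fold change was -2.15 (Xiangfei), -0.98 (Italia) and 0.10 (Zaomeiguixiang), and -1.11 ± 0.65 together (adjusted p = 0.306), which turned to 0.60 without the 4 libraries. The flavonol synthase LOC100264239 was at -0.40 ± 0.56.

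Terpenoid enzymes, of the routes to monoterpenes, sterols and other terpenes, were called in both directions. Of 64 tested, 2 (3.12%) were higher and 5 (7.81%) lower, with a median of 0.06, and 1 higher and 5 lower were called without the 4 libraries. Both higher genes were annotated as geraniol 8-hydroxylases, cytochrome P450 enzymes that oxidise monoterpenes: LOC100243672, given above, and LOC100245631. The second had 0.7, 22.4 and 115 FPKM at the later stages, against 0.03, 5.72 and 14 FPKM at EL35, with log2 fold changes of 2.48 (Xiangfei), 2.41 (Italia) and 2.87 (Zaomeiguixiang). Its call (log2 fold change 2.59 ± 0.47, adjusted p = 0.000419) was lost without any 1 of the 3 Zaomeiguixiang EL35 replicates and without the 4 libraries (adjusted p = 0.00243). In the mevalonate branch, the HMG-CoA reductase LOC100243051, its rate-limiting enzyme, had 0.52, 3.42 and 14.6 FPKM at the later stages, against 4.52, 19.9 and 76.3 FPKM at EL35 (log2 fold change -2.73 ± 0.53, adjusted p = 0.000947), a call that was lost without any one of 21 single libraries. The HMG-CoA reductase LOC100265082 (-1.52), isopentenyl-diphosphate isomerase LOC100241072 (-1.24) and squalene synthase LOC100265798 (-1.13) were also lower. In the plastid branch, which feeds monoterpenes, LOC100268079, annotated as a probable deoxyxylulose phosphate synthase 2, was lower at -1.89 ± 0.35 (adjusted p = 0.000529). Its level was low, with means of 1.36 FPKM at the later stages and 4.49 FPKM at EL35. These 4 are named after their values were seen. The most abundant members, acetyl-CoA acetyltransferase LOC100240809 (-0.39 ± 0.17) and HMG-CoA synthase LOC100244379 (-0.24 ± 0.24), did not pass the test.

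Of 37 lipoxygenase and alcohol volatile genes, 5 (13.5%) were lower, and 4 without the 4 libraries. Alcohol dehydrogenase ADH3 had 33.1, 76.4 and 154 FPKM at the later stages, against 126, 189 and 348 FPKM at EL35 (log2 fold change -1.60 ± 0.20, adjusted p = 5.07e-06), with a fall in each cultivar of -0.96 to -2.27. The class 3 alcohol dehydrogenase LOC100258412 had 31.1, 51.2 and 92.1 FPKM, against 69.7, 95.8 and 192 FPKM at EL35 (log2 fold change -1.18 ± 0.22), and its call was lost without any one of 7 single libraries (adjusted p of at most 0.00173). The far more abundant ADH2 and hydroperoxide lyase HPLA had later medians of 1003 and 1026 FPKM against EL35 medians of 1014 and 1127 FPKM, and were at 0.27 ± 0.32 and 0.22 ± 0.39. The list's median was -0.09. Of 33 carotenoid enzymes edgeR called 0, with 11 at an unadjusted p under 0.05 (beside 25.7% of all genes), and DESeq2 called 2 higher. The carotenoid cleavage dioxygenase LOC100249903 was at -0.72 ± 0.22 (adjusted p = 0.0252) and LOC100252859, of the CCD4 type, at 1.48 ± 0.53 (adjusted p = 0.0638).

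Hormone genes that passed the test were few, beside 0.501% higher and 1.58% lower over all genes. Of 98 auxin genes 1 was lower (1.02%): LOC100250437, a GH3 enzyme that joins amino acids to auxin, with 0, 0.05 and 1.67 FPKM at the later stages, against 0.02, 0.61 and 29.2 FPKM at EL35. Its log2 fold change of -4.90 became -2.66 without the 4 libraries (adjusted p = 0.0624), and its call was also lost without Xiangfei EL35 replicate 1 or Zaomeiguixiang EL35 replicate 3. Of 107 ethylene genes 1 was lower (0.935%), and 0 without the 4 libraries. Of 23 abscisic acid genes 1 was lower (4.35%). This was LOC100255346, annotated as ABSCISIC ACID-INSENSITIVE 5-like and named after its values were seen. Its means were 0.00444 FPKM at the later stages and 3.41 FPKM at EL35, and it was too low to be tested without the 4 libraries. The 1 abscisic acid gene called lower there was another, LOC100250281. The abscisic stress-ripening protein LOC100250281 was abundant in both groups, with 8352, 12893 and 27390 FPKM at the later stages, against 11959, 22381 and 50336 FPKM at EL35 (log2 fold change -1.01 ± 0.27, adjusted p = 0.0125), and passed the test without the 4 libraries (-1.33, adjusted p = 0.000825). NCED1, of the committed step of abscisic acid synthesis, had 1.74 to 519 FPKM at the later stages and 2.12 to 83 FPKM at EL35. Its 2 highest libraries were Xiangfei EL36 replicates 1 and 3, and its log2 fold change was 1.82 at EL36 over EL35 and -0.64 at EL38 over EL35. The ethylene response genes LOC100248027 (-0.56 ± 0.20) and LOC100250496, of the EIN3 type (0.12 ± 0.18), and the auxin genes LOC100260521 (-0.78 ± 0.37) and LOC100854934 (0.01 ± 0.24) did not pass the test. Of 49 gibberellin, brassinosteroid and cytokinin genes edgeR called 0, with 16 at an unadjusted p under 0.05 (beside 25.7% of all genes). DESeq2 called 2 higher and 3 lower, and edgeR 1 higher and 2 lower without the 4 libraries. The abundant DELLA proteins LOC100249084 and LOC100253268, which repress gibberellin responses, were at -0.01 ± 0.27 and 0.22 ± 0.35.

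Few transcription factors passed the test, as was so over all genes (0.501% higher and 1.58% lower). Of 44 NAC and 49 WRKY factors edgeR called 0 in either family, with 13 and 14 at an unadjusted p under 0.05 (beside 25.7% of all genes), while DESeq2 called 1 NAC factor higher and 1 lower, and 4 WRKY factors higher and 1 lower. When the 4 libraries were left out edgeR called 2 WRKY factors lower. Of 70 MYB factors 2 (2.86%) were lower, and 0 without the 4 libraries. Of 74 MADS-box and bHLH factors 1 (1.35%) was higher, against 0 higher and 1 lower without them. MYB86 (LOC100247039) had 0.22, 1.08 and 3.2 FPKM at the later stages, against 0.59, 4.96 and 12 FPKM at EL35 (log2 fold change -2.12 ± 0.40, adjusted p = 0.00071), and its call was lost without any one of 17 single libraries and without the 4 libraries (adjusted p = 0.0252). Medians of the abundant factors, later stages first, were 280 and 199 FPKM for NAC25 (LOC100248744), 233 and 229 FPKM for the NAM-B1-like LOC100259233, 256 and 233 FPKM for MADS4, 135 and 116 FPKM for the MYB44-like LOC100243698, 76.9 and 66.9 FPKM for MYB1R1 (LOC100265707), 212 and 360 FPKM for bHLH137 (LOC100268131), 73.1 and 106 FPKM for WRKY33 (LOC100243352) and 62.5 and 108 FPKM for WRKY23 (LOC100264006). None of these 8 passed the test. The log2 fold change was -0.70 ± 0.22 for bHLH137 (adjusted p = 0.0383), 0.37 ± 0.31 for WRKY33 and -0.71 ± 0.24 for WRKY23 (adjusted p = 0.0531), the last reaching -1.10 without the 4 libraries (adjusted p = 0.000418).

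Of 106 pathogenesis-related genes, 4 (3.77%) were higher and 5 (4.72%) lower, beside 0.501% and 1.58% of all genes. At an adjusted p of at most 0.05, 23 were higher and 11 lower, beside 3.71% and 5.04% of all genes. Without the 4 libraries edgeR called 2 lower and the calls of the 4 higher genes were lost. The most abundant members, the class IV chitinase CHI4D and the defensin LOC100242603, had medians of 4507 and 3096 FPKM at the later stages against 2668 and 3860 FPKM at EL35, and neither passed the test (0.74 ± 0.32 and -0.35 ± 0.24). Of 91 genes of lipid transfer and cuticle, 5 (5.49%) were lower, and 4 without the 4 libraries. The DIR1-like LOC100258895, a lipid transfer protein, had 30.7, 123 and 533 FPKM at the later stages, against 235, 392 and 1349 FPKM at EL35 (log2 fold change -1.97 ± 0.35, adjusted p = 0.000344), and its call was lost without Xiangfei EL35 replicate 2, Italia EL35 replicate 1 or Zaomeiguixiang EL35 replicate 1 (adjusted p of at most 0.00152). The lipid transfer protein LOC100232872 had 384, 1304 and 8115 FPKM, against 244, 598 and 1533 FPKM at EL35 (1.27 ± 0.46, adjusted p = 0.0726). LOC100266074, of the same class, had 16208 FPKM in Italia EL35 replicate 3 and 1110 FPKM in Zaomeiguixiang EL35 replicate 3, both libraries with seed transcripts, against an EL35 median of 6.01 FPKM, and did not pass the test.

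Of 178 peroxidases and antioxidant enzymes, 3 (1.69%) were higher and 8 (4.49%) lower, against 2 and 8 without the 4 libraries. Glutaredoxin-C13 (LOC100247747), a small redox protein, had 0, 0.78 and 9.26 FPKM at the later stages, against 7.09, 16.4 and 46.1 FPKM at EL35 (log2 fold change -3.96 ± 0.54, adjusted p = 1.52e-05), and 17 of the 18 later samples lay below every EL35 sample. The glutathione S-transferase LOC100242506 had 0.05, 0.5 and 25.6 FPKM, against 5.3, 29 and 305 FPKM at EL35 (log2 fold change -3.84 ± 0.72), a call that was lost without any one of 15 single libraries (adjusted p of at most 0.00166). Among the higher genes, named after its values were seen, was the polyphenol oxidase LOC100266870, of the enzymes that brown cut fruit, with means of 219 FPKM at the later stages and 26.5 FPKM at EL35 (log2 fold change 3.16 ± 0.45, adjusted p = 2.12e-05). The cytosolic ascorbate peroxidase APX was lower, at -2.59 ± 0.38. The abundant catalase GCAT, which breaks down hydrogen peroxide, was at -0.57 ± 0.23, and the thioredoxin LOC100266040 at 1.04 ± 0.31 (adjusted p = 0.0258). Of 102 heat shock genes 1 was lower (0.98%, beside 1.58% of all genes), and 1 higher and 1 lower without the 4 libraries. At an adjusted p of at most 0.05, 13 were higher and 1 lower, beside 3.71% and 5.04% of all genes. DESeq2 called 6 higher and 1 lower, and 65 of the 102 had a positive log2 fold change. The gene called lower by edgeR was the heat shock cognate 70 gene LOC100253562. It had 161, 325 and 675 FPKM at the later stages, against 417, 714 and 1013 FPKM at EL35 (log2 fold change -1.05 ± 0.19). Its call was lost without Xiangfei EL35 replicate 3, Italia EL35 replicate 1 or Italia EL35 replicate 2 (adjusted p of at most 0.00164). The other abundant heat shock cognate 70 gene, LOC100254725, had a median of 1446 FPKM at the later stages and 784 FPKM at EL35 and was at 0.68 ± 0.34 (adjusted p = 0.202).

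**Figure D4:**
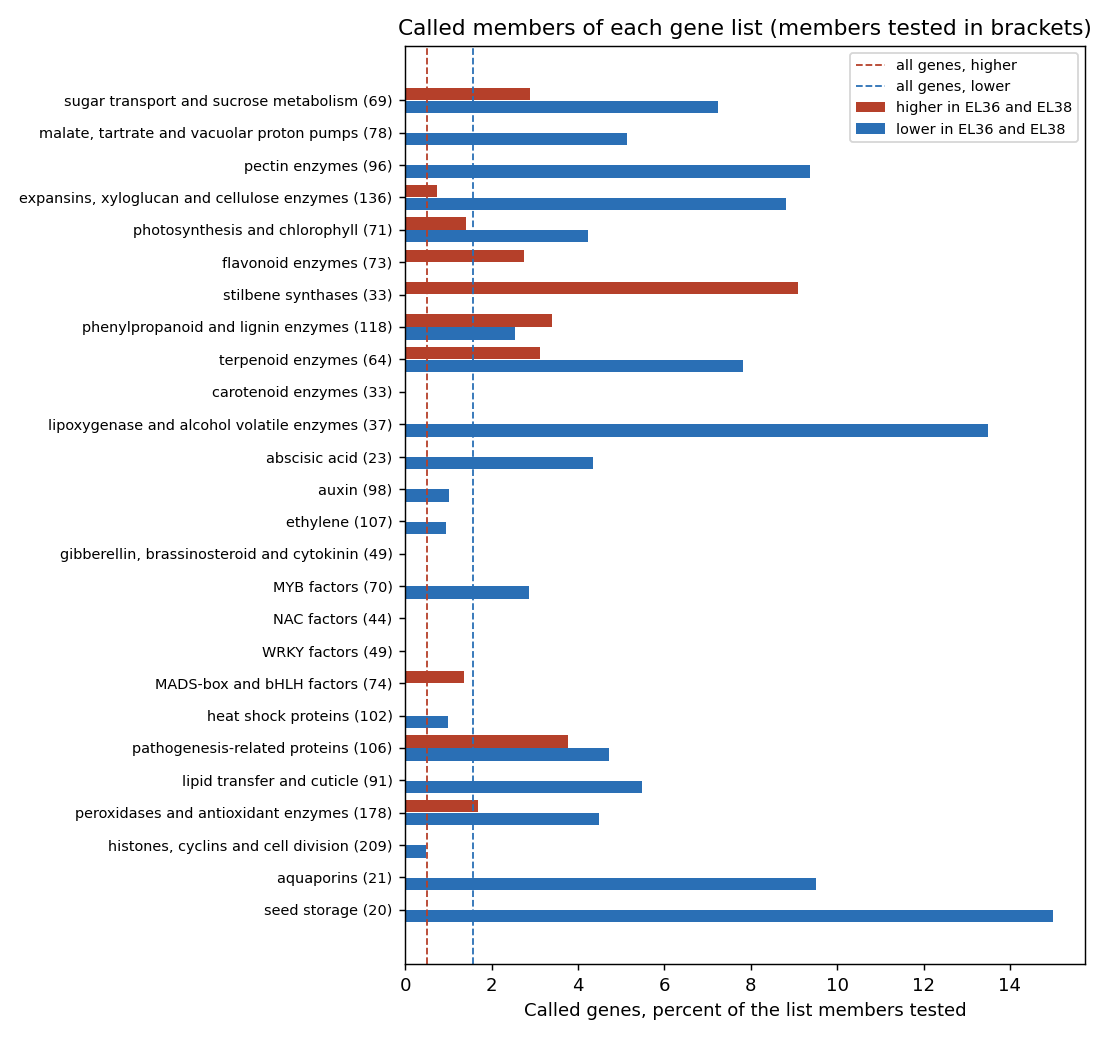
Share of the tested members of each of 26 gene lists that were called higher (red) or lower (blue) at the later stages than at EL35, in percent, with the share over all 21152 genes as dashed lines (0.501% and 1.58%) and the number of members tested in brackets. Pectin enzymes (9.38%), expansins, xyloglucan and cellulose enzymes (8.82%) and aquaporins (9.52%) lie above the line for lower genes, stilbene synthases (9.09%) above that for higher genes, and the 15% of the seed storage list rested on the libraries with seed transcripts.

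The 38 lower genes without overlap held enzymes of the cell wall beyond those given above. Named after their values were seen, these were endoglucanase 6 (LOC100259874, log2 fold change -2.62), glucomannan mannosyltransferase 2 (LOC100251616, -2.58), expansin-A13 (LOC100249605, -2.25) and endoglucanase 10 (LOC100262603, -2.03). The mannosyltransferase, which builds mannan chains, had 8.66, 38.1 and 111 FPKM at the later stages, against 119, 248 and 337 FPKM at EL35. GDP-mannose 3,5-epimerase 2 (LOC100245900), an enzyme on the route from GDP-mannose to ascorbate, had 16.4, 49.2 and 103 FPKM, against 146, 231 and 1062 FPKM at EL35 (log2 fold change -2.69, adjusted p = 2.09e-07). Peroxidase 42 (LOC100241814) had 4.02, 32.4 and 73.7 FPKM, against 99, 258 and 782 FPKM at EL35 (log2 fold change -3.45, adjusted p = 1.43e-08). A pair of transporters of the nitrate and peptide family, LOC100241176 and LOC100259213, were at -2.40 and -2.42, and a chloroplast triose phosphate translocator, LOC100264496, at -4.86 with 0, 0.41 and 1.59 FPKM at the later stages, against 7.75, 14 and 26.1 FPKM at EL35. DETOXIFICATION 40 (LOC100246512), a membrane transporter, was listed at 0 FPKM in each later sample and had 0.89, 1.57 and 4.44 FPKM at EL35. Of these 38 genes, 37 were also called without the 4 libraries.

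The medians of the change over EL35 lay close together at EL36 and EL38. The genes were called on both stages joined against the same EL35 samples. That choice favours like changes at both stages, so the closeness is no separate support. Among the 106 higher genes the median log2 fold change over EL35 was 2.76 at EL36 and 2.65 at EL38, and 48 of them were higher at EL38 than at EL36. Among the 335 lower genes it was -2.07 at EL36 and -2.34 at EL38, and 219 were lower at EL38 than at EL36. No call was made between the later stages themselves: of 21152 genes edgeR called 0 (0%) for EL38 over EL36, with 1094 genes at an unadjusted p under 0.05, while DESeq2 called 47 higher and 60 lower. Medians of the nitrilase LOC100853652 were 0.27, 20.6 and 50.9 FPKM at EL35, EL36 and EL38, and those of mavicyanin (LOC100252646) were 13, 134 and 349 FPKM. Medians of pectate lyase 5 (LOC100242302) were 307, 4.63 and 7.07 FPKM, and those of the tubulin LOC100259087 were 369, 75.5 and 79 FPKM.

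**Figure D5:**
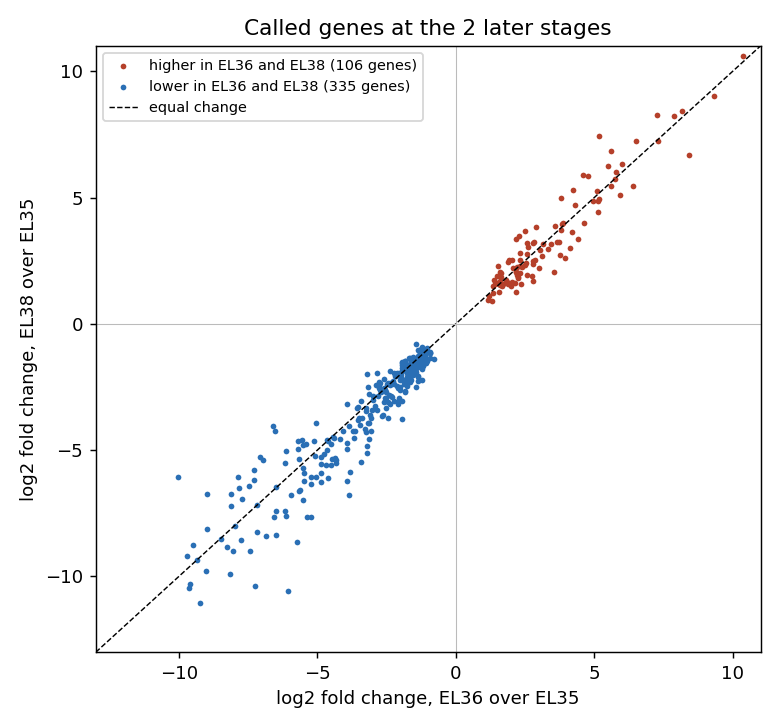
Log2 fold change of EL36 over EL35 (horizontal axis) against EL38 over EL35 (vertical axis) for the 106 higher (red) and 335 lower (blue) genes, with a dashed line where both are equal. EL35 samples enter both axes and the genes were called on both stages joined, which favours points along the line. The points lie along it on both sides of 0.

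The change did not pass the test of a difference between cultivars at the threshold used. With cultivar and stage group allowed to interact, edgeR called 0 of 21152 genes at an adjusted p of at most 0.001 (0%), with 2834 genes at an unadjusted p under 0.05, and DESeq2 called 53. At an adjusted p of at most 0.05 there were 63 genes (0.298%), and 0 of the 441 genes changed at the later stages were among them. The 441 came from a test that favours genes moving alike in the cultivars. Xiangfei and Italia had opposite signs in most of these 63: Xiangfei was negative and Italia positive in 47 genes, the reverse held in 6, and the value of Zaomeiguixiang lay between the other cultivars in 51. In the paper Italia had the lowest soluble solids at each stage, and the part of this in the differences was not tested. Named after their values were seen, 4 putative plasma membrane calcium-transporting ATPases were among them. LOC109122192 had a log2 fold change of -2.76 (Xiangfei), 2.77 (Italia) and 0.79 (Zaomeiguixiang) (adjusted p = 0.00677), LOC100243737 of -2.29, 2.99 and -0.21 in the same order (adjusted p = 0.0074), LOC100248876 of -2.62, 2.77 and -0.17 (adjusted p = 0.027), and LOC109122161 of -1.96, 2.28 and 0.10 (adjusted p = 0.0364). They carry the same description, so that reads may be shared between them. Chorismate mutase 2 (LOC100261098), of aromatic amino acid synthesis, had -1.60, 1.76 and -0.72 (adjusted p = 0.0125).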

How the data were processed

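RNA from berry pools was enriched with oligo(dT) beads, and per the labels and the study's methods reads were mapped to the V2 grapevine genome with HISAT, then to reference plus newly detected transcripts with Bowtie2, and counted with RSEM. The authors made an expected count (estimated count) and an FPKM value per gene for each sample with RSEM, as deposited. RSEM divides reads shared by similar genes. Genes missing from a table were taken as 0 and expected counts were rounded.

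The main test was edgeR 4.0.16 (quasi-likelihood, TMM, filterByExpr on 9 groups) with cultivar and stage group as terms. Further fits added their interaction, or the 3 stages. Genes were called at p of at most 0.001 after Benjamini-Hochberg adjustment over all genes, with an absolute log2 fold change no smaller than 1. The SE is the log2 fold change divided by the root of F. FPKM values are descriptive. DESeq2 1.42.0, other scaling, no filter, other contrasts and left-out libraries were alternatives. The fits were tested on simulated counts.

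Named genes were, with a mean of at least 10 FPKM in the higher group, the 12 largest called rises and falls of named reference proteins moving the same way in each cultivar, plus in each of 26 lists, matched by protein description, the 2 most abundant members and up to 2 called members with the largest change and at least 5 FPKM. Of 24590 reference identifiers 22426 were in the name table. Members and lists were chosen with earlier results of these data known. No sequences or coordinates were used here.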

Additional observations from a re-analysis of the deposited data

Results flagged for a closer look

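Among the 99 named genes, 27 had 1 EL35 sample of 9 far above the rest by Dixon's test. Chance flags about 1 in 20 groups of normally distributed values, and FPKM values are skewed to the right, so that rate may be too low here. The largest falls were also chosen with a mean of at least 10 FPKM at EL35, which 1 high library can supply. LOC100853530 had an EL35 mean of 19.7 FPKM and a median of 0.08 FPKM. The choice of genes thus favours such samples, and the count of 27 cannot be set against that rate. Xiangfei EL35 replicate 3 was that sample for 7 genes, at 8.01 FPKM for LOC100247990, 5.02 for LOC100853652, 10.7 for LOC100261887, 15.5 for LOC100256795, 45.4 for LOC100265028, 7.08 for STS (100242994) and 3.05 for LOC100264173, all of them genes whose later median was above their EL35 median. Zaomeiguixiang EL35 replicate 1 was the high sample for 6 genes, at 49.7 FPKM for LOC100852930, 15.4 for LOC100266332, 0.03 for LOC100253166, 634 for MADS4, 767 for LOC100268131 and 305 for LOC100242506. Xiangfei EL35 replicate 1, a library with seed transcripts, was the high sample for 5 genes, at 1 FPKM for LOC100265206, 145 for LOC104878898, 463 for LOC100243135, 80 for LOC100248638 and 171 for LOC100853530.

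The other 2 EL35 libraries with seed transcripts each led 2 genes. Italia EL35 replicate 3 had 16208 FPKM of LOC100266074 and 19962 FPKM of the vicilin LOC100852645, and Zaomeiguixiang EL35 replicate 3 had 0.2 FPKM of LOC100263839 and 484 FPKM of LOC100258789. The remaining high samples were Italia EL35 replicate 1 with 418 FPKM of LOC100232980 and 331 FPKM of LOC100241745, Italia EL35 replicate 2 with 8436 FPKM of CHI4D, Xiangfei EL35 replicate 2 with 1038 FPKM of LOC100243978, and Zaomeiguixiang EL35 replicate 2 with 165 FPKM of LOC100252859.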

How the results depend on the processing

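Counts of changed genes depended on the tool and the threshold. edgeR as described gave 106 higher and 335 lower genes. DESeq2 gave 480 and 549, with 106 and 285 of those calls among them, and an adjusted p of at most 0.05 gave 784 and 1066. The contrast of 9 group means gave 176 higher genes (423 lower). Other scaling, no filter, reference genes only, robust dispersion and the 3-stage contrast gave 104 to 118 higher and 324 to 353 lower genes. Without the 4 libraries with seed transcripts, chosen after the data were seen, there were 71 and 318, and without the pair of libraries suspected earlier 112 and 356. Leaving out 1 library at a time gave 67 to 144 higher and 251 to 413 lower genes, the lowest without Zaomeiguixiang EL35 replicate 3 and the highest without Xiangfei EL38 replicate 3. The difference between cultivars gave 0 to 3 genes when 1 library was left out, 63 at an adjusted p of at most 0.05 and 53 with DESeq2, and EL38 over EL36 gave 0 when 1 library was left out and 47 higher and 60 lower with DESeq2. With the replicate number as a replicate block there were 89 higher and 277 lower genes. The numbers did not pair the samples (mean correlation of deviations -0.01 over 108 same-numbered pairs, from -0.41 to 0.54, and 0.00 over 216 others).

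Of the 50 named genes called, 49 were called with DESeq2's scaling, 39 with the block and 28 of the 47 still tested without the 4 libraries. A called direction turned in 0 cases under these settings. Signs turned only in genes that were not called: LOC100249084 was 0.03 with DESeq2 and with its scaling, LOC100854934 was -0.11 without the pair of libraries and -0.14 without the 4, where CHS3 was 0.60, HPLA -0.07, LOC100248744 -0.01 and MADS4 -0.05, and NCED1 was -0.06 and LOC100259233 0.01 with 9 group means. With 1 library left out the ranges were -0.10 to 0.20 for LOC100854934, -0.13 to 0.15 for LOC100249084, -0.22 to 0.09 for LOC100259233 and -0.03 to 0.25 for MADS4. The cause of these shifts was not tested.

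At 16908557 to 27186956 counts a library, genes near 0 in 1 group rest on few counts, and their fold changes depend on the prior count of the fit. The common dispersion was 0.633.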

Other observations

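Seed storage transcripts at a low level divided the other 23 libraries without intermediate values. In 10 of them legumin (LOC100241281) was at 1.37 to 2.38 FPKM, cruciferin (LOC100246409) at 4.04 to 6.29 FPKM and 2S albumin (LOC100252101) at 3.33 to 5.45 FPKM, and in the other 13 these were at most 0.03, 0.18 and 0 FPKM. The 10 libraries were from the later stages in 6 cases (Italia EL36 replicates 2 and 3, Italia EL38 replicate 2, Zaomeiguixiang EL36 replicates 2 and 3 and Zaomeiguixiang EL38 replicate 2) and from EL35 in 4 cases (Xiangfei replicate 3, Italia replicates 1 and 2 and Zaomeiguixiang replicate 1).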
